A study of Mus musculus with 4 samples.

Results

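The 10 genes described here encode 7 inhibitory receptors of B cells, Cd22, Cd72, Fcgr2b, Siglecg, Pirb, Ceacam1 and Lair1, and 3 phosphatases, Ptpn6, Inpp5d and Ptprj. They were chosen by symbol, and all 10 were found among the 24411 gene symbols of each deposited table. The cells were B cells sorted for B220, a surface form of CD45 carried by the B lineage, out of mouse bone marrow from tibia and femur. The groups were 2 libraries labelled Arid5b overexpression (tag AOE in the column headers) and 2 wildtype (WT) libraries, with no further treatment named. Arid5b encodes a member of the ARID family of DNA-binding proteins. The strain, age, transgene and promoter that drive Arid5b are not given in the sources used here, and nothing says whether each library came from 1 mouse, so p-values measure the spread between these libraries.

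The receptors carry immunoreceptor tyrosine-based inhibitory motifs (ITIMs) in their cytoplasmic tails. When such a receptor is drawn to the B cell antigen receptor, the kinase Lyn phosphorylates the motif, and the motif then binds the tyrosine phosphatase SHP-1, encoded by Ptpn6, or the lipid phosphatase SHIP-1, encoded by Inpp5d. These enzymes dampen calcium flux and kinase signalling. CD148, encoded by Ptprj, differs from both in that it spans the membrane and acts, with CD45, on the tyrosines of Src family kinases such as Lyn.

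The libraries do not all follow their labels. AOE-labelled libraries 1 and 2 held 15281839 and 20356404 reads on genes, and WT libraries 1 and 2 held 20146878 and 14196665. Arid5b had 136339 normalised reads (reads divided by the size factor the authors used for the library) in AOE-labelled library 1 and 5454 in AOE-labelled library 2, against 5963 and 6813 in WT. It was thus raised in 1 of the 2 libraries that carry the label (log2 difference from WT 4.41, SE 0.126, limma adjusted p = 1.28e-11, against -0.22, SE 0.145, limma adjusted p = 0.493), and each AOE-labelled library is therefore also set alone against the WT pair. A lone library has no spread of its own and is assumed to vary as the WT pair does, so these tests compare libraries and not genotypes. AOE-labelled library 1 differed from WT in 61.2% of the 12617 genes tested and AOE-labelled library 2 in 1.66%, at a limma adjusted p under 0.05. WT library 1 also differed from the other 3 in sex-linked genes, with 24 reads of Xist against 68540, 132008 and 77255 in AOE-labelled libraries 1 and 2 and WT library 2. The 8 B lineage markers examined, among them Cd79a, Pax5 and Ebf1, had reads in every library. All 8 differed from WT in AOE-labelled library 1, where 5 fell and 3 rose, and they summed to 123453 and 239070 normalised reads in AOE-labelled libraries 1 and 2, against 223348 and 243502 in WT; the part of this in the other results was not tested. Apart from Pirb and Lair1, the lowest read number of any of the 10 was 281, for Fcgr2b in AOE-labelled library 1.

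The sequences just upstream of the transcription starts of 5 of the genes are shown because their RNAs took different courses in AOE-labelled library 1: Cd22, Inpp5d, Pirb and Ptprj fell and Ceacam1 rose. Each is the 250 bases before the start in RefSeq's annotation of GRCm38.p6, read 5′ to 3′ on the gene's strand. Capitals mark matches, on either strand, to the palindromic core bound by EBF1 (TCCC and GGGA with any 2 bases between them), GAGGAAGT (a PU.1 and ETS family core), ATGCAAAT (the octamer) or CAGGTG (an E-box of E2A). They lie at chr7:30879029-30879278, minus strand for Cd22, chr7:25477626-25477875, minus strand for Ceacam1, chr1:87620062-87620311, plus strand for Inpp5d, chr7:3720383-3720632, minus strand for Pirb and chr2:90580596-90580845, minus strand for Ptprj.
Cd22: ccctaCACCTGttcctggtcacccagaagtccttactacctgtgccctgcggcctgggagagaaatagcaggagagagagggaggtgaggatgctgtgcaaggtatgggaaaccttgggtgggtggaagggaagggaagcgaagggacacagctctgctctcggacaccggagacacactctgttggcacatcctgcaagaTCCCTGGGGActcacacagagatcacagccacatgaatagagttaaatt
Ceacam1: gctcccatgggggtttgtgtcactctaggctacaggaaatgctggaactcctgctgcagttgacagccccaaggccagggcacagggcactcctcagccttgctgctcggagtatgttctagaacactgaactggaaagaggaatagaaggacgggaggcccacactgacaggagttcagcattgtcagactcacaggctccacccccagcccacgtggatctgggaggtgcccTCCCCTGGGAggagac
Inpp5d: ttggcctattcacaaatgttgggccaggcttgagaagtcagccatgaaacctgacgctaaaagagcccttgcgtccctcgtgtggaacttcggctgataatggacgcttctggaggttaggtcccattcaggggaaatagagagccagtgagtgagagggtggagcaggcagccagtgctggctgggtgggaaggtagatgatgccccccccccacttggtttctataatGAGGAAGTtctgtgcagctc
Pirb: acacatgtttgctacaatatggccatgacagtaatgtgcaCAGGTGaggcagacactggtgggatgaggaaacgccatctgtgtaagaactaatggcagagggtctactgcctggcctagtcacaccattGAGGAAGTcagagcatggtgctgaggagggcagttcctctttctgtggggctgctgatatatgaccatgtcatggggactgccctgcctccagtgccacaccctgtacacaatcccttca
Ptprj: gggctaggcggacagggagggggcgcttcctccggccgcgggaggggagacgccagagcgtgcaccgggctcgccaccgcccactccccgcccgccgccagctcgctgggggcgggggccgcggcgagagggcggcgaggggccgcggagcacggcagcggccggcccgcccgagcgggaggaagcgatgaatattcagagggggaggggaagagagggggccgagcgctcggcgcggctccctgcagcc
The EBF1 core was found upstream of Cd22 and Ceacam1 alone among the 10 genes, and it occurs in 0.78% of the 32817 mouse windows of the same length. The gene that rose and a gene that fell thus share this core, which starts 49 bases before the RefSeq start of Cd22 and 16 before that of Ceacam1. The windows of Cd22 and Fcgr2b lie wholly inside these genes in GENCODE M21, where both begin further upstream (Cd22 at 30880342). The PU.1 core was present upstream of Cd72, Pirb and Inpp5d and occurs in 2.44% of windows. The E-box was present for Cd22, Pirb and Ptpn6, against 17.2% of windows, and the octamer for none of the 10, against 1.6%. Ptprj stood apart in base composition, with 79.2% G and C and 34 CpG dinucleotides, where the median window had 52.4% and 6. A match is a string of letters and not a measured binding site. By position, 5 of the 10 genes lie on chromosome 7, namely Cd22, Siglecg, Pirb, Ceacam1 and Lair1.

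Per length of exon, the phosphatases and CD22 stood at the top of the range and PIR-B and LAIR1 at the bottom. In WT, Cd22 averaged 2737 ± 196 normalised reads per kb of exon (SD, n = 2) and Inpp5d 2703 ± 23.9, and the ranges of this pair overlapped. Next came Ptpn6 at 2078 ± 278, Ptprj at 1539 ± 12.6, Siglecg at 1474 ± 68.0 and Cd72 at 914 ± 67.2 normalised reads per kb. Ceacam1 at 299.6 ± 4.45 and Fcgr2b at 248 ± 55.2 normalised reads per kb followed, and Pirb at 90.2 ± 92.8 and Lair1 at 79.4 ± 48.6 came last with overlapping ranges. The other neighbours in this order had WT ranges that did not overlap, with 2 libraries each. Exon lengths are from GENCODE M21 on GRCm38, which may differ from the annotation the authors counted on.

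**Figure D1:**
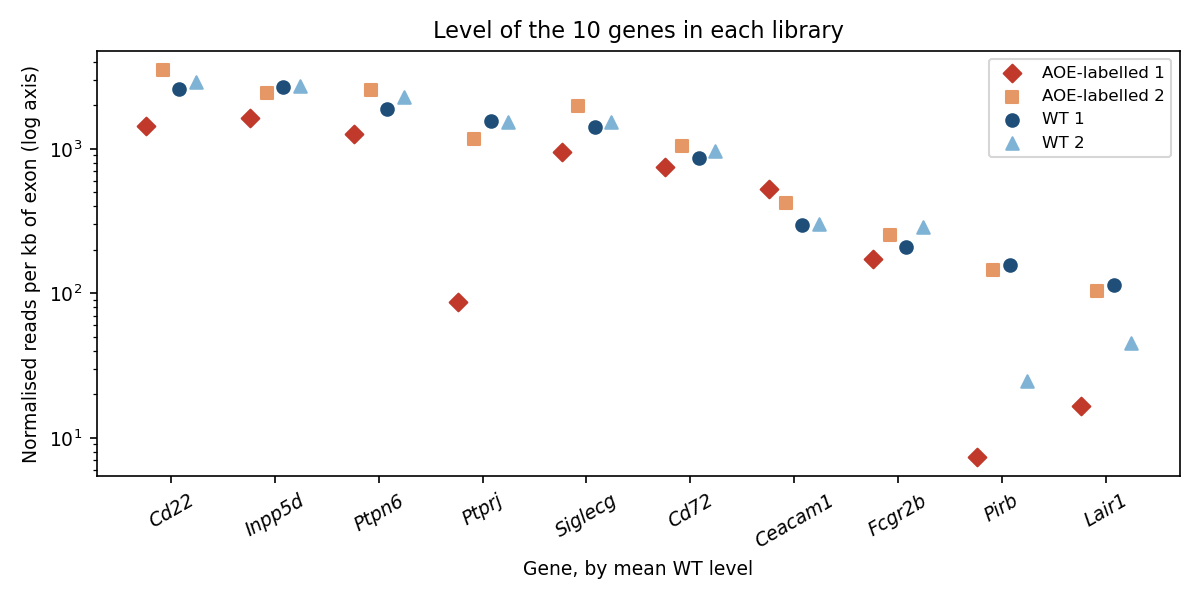
Normalised reads per kb of exon (log axis) for each of the 10 genes in AOE-labelled libraries 1 and 2 and WT libraries 1 and 2, 1 point per library. Ptprj in AOE-labelled library 1 stood at 86.4 against 1547 and 1530 in WT, while Pirb and Lair1 also differed between the WT libraries.

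AOE-labelled library 1 changed this order. Ptprj was 8th of the 10 there, against 4th in both WT libraries. Cd22 made up 37.2% of the summed per-length level of the 7 receptors in AOE-labelled library 1 and 47.1% in AOE-labelled library 2, against 45.9% and 47.8% in WT libraries 1 and 2. The share of Ceacam1 was 13.7% in AOE-labelled library 1 and 5.62% in AOE-labelled library 2, against 5.23% and 5.03% in WT. These shares do not depend on how libraries are scaled to each other.

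Set against WT, 7 of the 10 genes fell in AOE-labelled library 1, 1 rose and 2 did not pass, whereas 0 of the 10 passed in AOE-labelled library 2. The 7 that fell were Cd22, Siglecg, Pirb, Lair1, Ptpn6, Inpp5d and Ptprj, and Ceacam1 rose. Of all genes tested, 34.4% fell and 26.8% rose in library 1, so that 61.2% were called, against 8 of these 10. The median difference of the 10 genes was -0.70 on the deposited log2 scale, where that of all genes was -0.15. The number called depends on the filter: with every gene that had a read, 3 of the 10 passed in library 1 (Ceacam1, Inpp5d and Ptprj). In AOE-labelled library 2, where 0.769% of all genes rose and 0.888% fell, the 10 genes had a median difference of 0.33 against 0.01 for all genes, and the number called was 0 in limma-voom as well. Both comparisons use the same WT libraries and so are not independent.

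**Figure D2:**
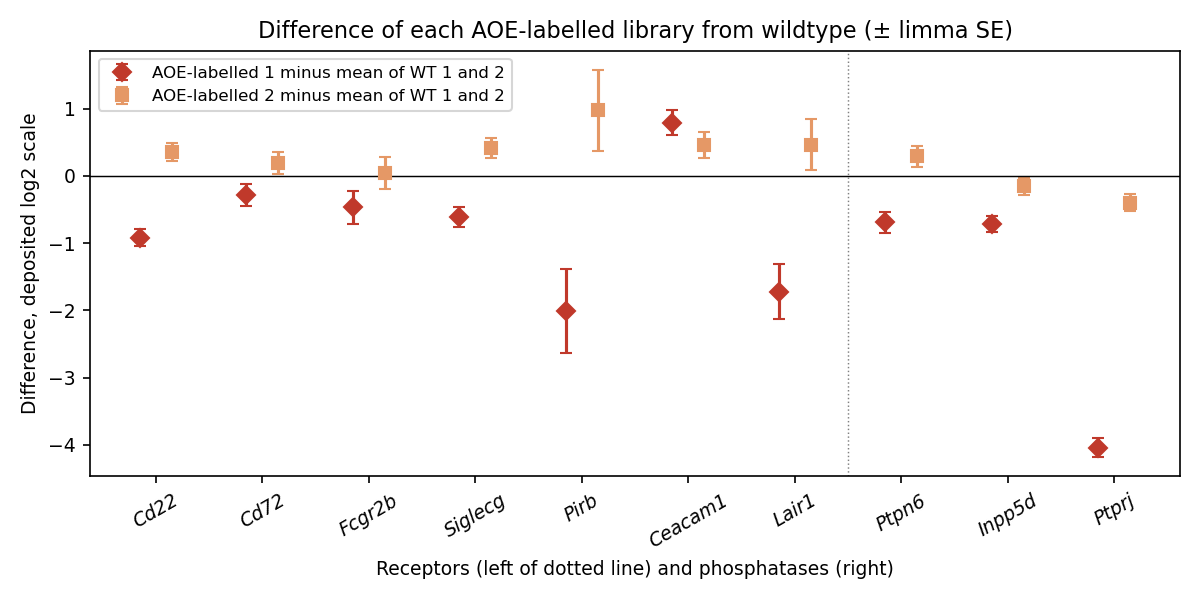
Difference of AOE-labelled library 1 (diamonds) and AOE-labelled library 2 (squares) from the mean of the 2 WT libraries on the deposited log2 scale, with limma standard errors, receptors left of the dotted line and phosphatases right of it. Ptprj in library 1 lay at -4.04, and all 7 receptors of library 2 lay above 0 without passing the threshold.

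CD22 and Siglec-G are the sialic acid binding receptors of the set, and CD22 is the most studied ITIM receptor of B cells. Cd22 (ENSMUSG00000030577.14, chromosome 7, 30865402 to 30880342, GRCm38) had 7030 normalised reads in AOE-labelled library 1 and 17120 in AOE-labelled library 2, against 12695 and 14052 in WT. Library 1 was the lowest of the 4 and library 2 the highest. Cd22 was 1.90-fold lower in library 1 than in WT (log2 difference -0.92, SE 0.128, limma adjusted p = 3.95e-05), and in library 2 it lay at 0.36 (SE 0.13, limma adjusted p = 0.206). Siglecg had 2451 and 5062 normalised reads in AOE-labelled libraries 1 and 2, against 3664 and 3911 in WT. It followed the order of Cd22, with library 1 lowest and library 2 highest. It was 1.55-fold lower in library 1 (log2 difference -0.61, SE 0.152, limma adjusted p = 0.00346). Both calls were lost when no filter on low reads was used (adjusted p = 0.0689 for Cd22 and 0.0703 for Siglecg). In bulk RNA fewer cells of a type and less RNA per cell cannot be told apart, which holds for every difference given here.

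Within each library, Siglecg had 0.349 and 0.296 reads per read of Cd22 in AOE-labelled libraries 1 and 2, against 0.289 and 0.278 in WT. The ratio of both sialic acid receptors to each other therefore varied less over the 4 libraries than their levels did. This pair was chosen after its values were seen.

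CD72 binds the semaphorin CD100, and FcγRIIB, encoded by Fcgr2b, binds the Fc part of IgG and recruits mainly SHIP-1. Cd72 had 2062 and 2904 normalised reads in AOE-labelled libraries 1 and 2, against 2399 and 2662 in WT. Its difference in library 1 did not pass (log2 difference -0.29, SE 0.166, limma adjusted p = 0.15). Exons of Tesk1 on the other strand cover 51.4% of the Cd72 exons in GENCODE, and Tesk1 had 348 to 819 reads, so the Cd72 count is uncertain unless strand was used. Tesk1 itself fell in library 1 (log2 difference -1.08, SE 0.197, limma adjusted p = 0.000386). Fcgr2b had 659 and 965 normalised reads in AOE-labelled libraries 1 and 2, against 797 and 1094 in WT. Library 1 was again lowest, but the WT libraries themselves differed 1.37-fold, and the difference did not pass (log2 difference -0.47, SE 0.242, limma adjusted p = 0.109). Its activating relative Fcgr3, with a similar ectodomain, had 3 and 38 reads in AOE-labelled libraries 1 and 2, against 16 and 11 in WT.

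Ceacam1 was the receptor that rose. CEACAM1 is a homophilic adhesion receptor with ITIMs in its long-tailed form. Ceacam1 had 2116 and 1674 normalised reads in AOE-labelled libraries 1 and 2, against 1185 and 1211 in WT. Both AOE-labelled libraries lay above both WT libraries, which differed from each other by 1.02-fold. Ceacam1 rose 1.77-fold in library 1 (log2 difference 0.79, SE 0.185, limma adjusted p = 0.00237), and library 2 lay 1.40-fold above WT without passing (0.46, SE 0.189, limma adjusted p = 0.257). The libraries labelled AOE did not differ past the threshold from each other in this gene (0.33, SE 0.211, limma adjusted p = 0.208). Its close relative Ceacam2, whose reads could be exchanged with Ceacam1, had 55 and 242 reads in AOE-labelled libraries 1 and 2, against 47 and 75 in WT. The short and long tailed isoforms of Ceacam1 are not separated in these gene counts.

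Pirb and Lair1 were the receptors that varied most. PIR-B, which binds MHC class I molecules, and LAIR1, which binds collagens, are carried by myeloid and dendritic cells as well as B cells. Pirb had 28.1 and 555 normalised reads in AOE-labelled libraries 1 and 2, against 596 and 94 in WT, from 12, 282, 299 and 34 reads. AOE-labelled library 2 and WT library 1 were thus high and the other two low. Pirb was 12.3-fold lower in library 1 than the WT mean (log2 difference -2.01, SE 0.624, limma adjusted p = 0.0132), but the WT libraries differed 6.34-fold between themselves. The difference was -3.08 against WT library 1 alone and -0.94 against WT library 2 alone, and the call was lost with a robust prior (adjusted p = 0.219) and with no filter (0.415). Lair1 had 120 and 740 normalised reads in AOE-labelled libraries 1 and 2, against 817 and 323 in WT. It showed the same high and low libraries as Pirb, and was 4.77-fold lower in library 1 than the WT mean (log2 difference -1.72, SE 0.411, limma adjusted p = 0.0027). Against WT libraries 1 and 2 alone the difference was -2.32 and -1.12, and with no filter the call was lost (adjusted p = 0.273). Of the activating PIR-A genes, close copies of Pirb that could take some of its reads, Pira2 had 0 and 6 reads in AOE-labelled libraries 1 and 2, against 39 and 2 in WT, and Pira6 had 0 and 10, against 13 and 5.

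Markers of other marrow cells also differed between the libraries, and the part of such cells in the result was not tested. Plasmacytoid dendritic cells also carry B220. Siglech, a defining marker of these cells, had 9.38 and 1020 normalised reads in AOE-labelled libraries 1 and 2, against 2249 and 887 in WT, which is the order of Pirb and Lair1. All 10 plasmacytoid markers together, of which Ly6d, Irf8, Tcf4 and Spib are also B cell genes, summed to 9075 and 41905 normalised reads in AOE-labelled libraries 1 and 2, against 41253 and 36975 in WT, and in library 1 the marker Klk1 was at 0. Ly6d, Irf8, Tcf4 and Spib gave most of this sum in every library, and it was close between the WT libraries. Single markers varied more: Siglech was 2.54-fold and Ccr9 1.86-fold higher in WT library 1 than in WT library 2. Pacsin1 was 1.04-fold higher there and Ly6d 1.32-fold lower. The plasmacytoid, monocyte, neutrophil and T and NK cell sums did not have the order of Pirb and Lair1. Of the plasmacytoid markers, Siglech, Klk1 and Tcf4 had this order, while Ccr9, Cox6a2, Pacsin1, Ly6d, Bst2, Irf8 and Spib did not. Of the monocyte markers Ly6c2 alone had it, at 18.8 and 463 normalised reads in AOE-labelled libraries 1 and 2, against 524 and 257 in WT. Of the 10 plasmacytoid markers, 9 fell in library 1, where 34.4% of all genes fell, and 0 passed in library 2, where 1.66% of all genes were called. The 10 monocyte markers summed to 2873 and 13788 normalised reads in AOE-labelled libraries 1 and 2, against 4072 and 4856 in WT. These markers went both ways in library 1, where 4 fell and 1 rose of 9 tested. F13a1 rose (log2 difference 4.77, limma adjusted p = 2.37e-07) and gave 1346 of the 2873, whereas Fcgr1 and Adgre1 were at 0. In AOE-labelled library 2 Lyz2 gave 7964 of the 13788, and Fcgr1 was at 0 there and in WT library 2. The 11 neutrophil markers summed to 5200 and 65439 normalised reads in AOE-labelled libraries 1 and 2, against 255 and 4339 in WT. Of the 11, 5 were at 0 in WT library 1. On the deposited log2 scale the 10 tested all lay above the WT mean in both AOE-labelled libraries. In normalised reads Mpo did not, at 134 in AOE-labelled library 1 against 12.0 and 263 in WT libraries 1 and 2. Both AOE-labelled libraries lay above both WT libraries in 5 of the 10, as in 19.6% of all genes tested. The median differences of the 10 were 1.76 and 5.11 in libraries 1 and 2, against -0.15 and 0.01 for all genes. The 10 T and NK cell markers with a row in the tables summed to 96.2 and 1116 normalised reads in AOE-labelled libraries 1 and 2, against 2365 and 2300 in WT, with 4 at 0 in AOE-labelled library 1. Their median differences were -2.07 and -0.79 in libraries 1 and 2, against -0.15 and 0.01 for all genes.

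**Figure D3:**
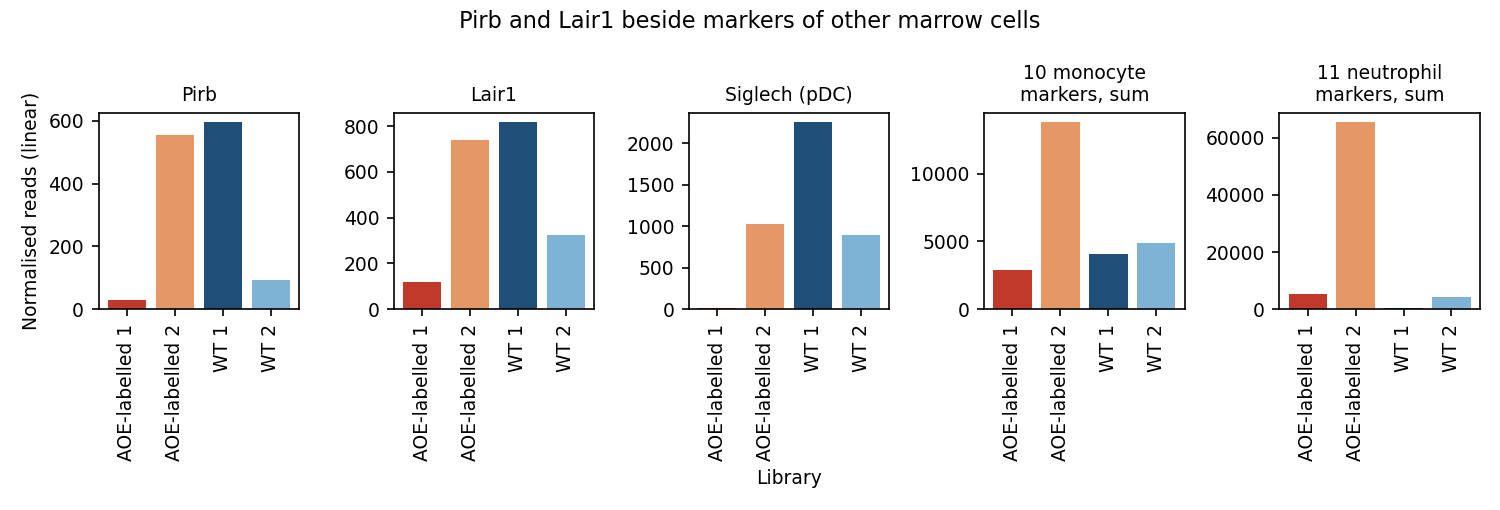
Normalised reads (linear axes, each panel its own scale) of Pirb, Lair1, the plasmacytoid dendritic cell (pDC) marker Siglech, and the summed monocyte and neutrophil markers in the 4 libraries. Siglech was at 9.38 in AOE-labelled library 1, and the neutrophil sum peaked at 65439 in AOE-labelled library 2. The plasmacytoid sum, not shown, was 9075 and 41905 in AOE-labelled libraries 1 and 2, against 41253 and 36975 in WT. It did not have the order of Siglech, Pirb and Lair1.

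The phosphatases all fell in AOE-labelled library 1, by very different amounts. Ptpn6 (SHP-1) had 3314 and 6625 normalised reads in AOE-labelled libraries 1 and 2, against 4903 and 5928 in WT, with library 1 lowest and library 2 highest. It was 1.63-fold lower in library 1 (log2 difference -0.69, SE 0.155, limma adjusted p = 0.00171), a call lost with no filter (0.147). Inpp5d (SHIP-1) had 8167 and 12095 normalised reads in AOE-labelled libraries 1 and 2, against 13380 and 13548 in WT. Both AOE-labelled libraries lay below both WT libraries, which differed by 1.01-fold. Inpp5d was 1.65-fold lower in library 1 (log2 difference -0.72, SE 0.123, limma adjusted p = 0.000225) and at -0.15 in library 2 (SE 0.126, limma adjusted p = 0.593).

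Ptprj (ENSMUSG00000025314.16, chromosome 2, 90429754 to 90580647, GRCm38) gave the largest difference of the 10 genes. It had 713 and 9620 normalised reads in AOE-labelled libraries 1 and 2, against 12767 and 12620 in WT. Library 1 lay far below the other 3, and library 2 also lay below both WT libraries. Ptprj was 17.8-fold lower in library 1 (log2 difference -4.04, SE 0.139, limma adjusted p = 6.56e-11), and it passed with each other scaling, filter and test tried. In library 2 the difference was -0.40 (SE 0.127, limma adjusted p = 0.153). CD45, encoded by Ptprc, is the other transmembrane phosphatase that acts on Src family kinases, and it fell less (log2 difference -2.47, SE 0.116, limma adjusted p = 1.16e-09). Ptprj had 0.0535 reads per read of Ptprc in AOE-labelled library 1 and 0.128 in AOE-labelled library 2, against 0.179 and 0.164 in WT. Ptprc was at 13330 normalised reads in library 1 against 71134 and 76808 in WT. The sort used B220, a form of its protein.

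Of the close relatives of SHP-1 and SHIP-1, one rose in AOE-labelled library 1 and the other did not pass. Inppl1, which encodes the broadly expressed SHIP-2, had 2055 and 557 normalised reads in AOE-labelled libraries 1 and 2, against 675 and 553 in WT, and rose in library 1 (log2 difference 1.66, SE 0.222, limma adjusted p = 2.75e-05, lost with no filter at 0.0683). Inpp5d had 3.97 reads per read of Inppl1 in AOE-labelled library 1 and 21.7 in AOE-labelled library 2, against 19.8 and 24.5 in WT. Ptpn11, which encodes SHP-2, had 2073 and 1398 normalised reads in AOE-labelled libraries 1 and 2, against 1759 and 1567 in WT, and did not pass in library 1 (0.31, SE 0.179, limma adjusted p = 0.147), though it did when libraries were scaled by their totals (0.0365). Ptpn6 had 1.60 reads per read of Ptpn11 in AOE-labelled library 1 and 4.74 in AOE-labelled library 2, against 2.79 and 3.78 in WT. Inppl1, Ptpn11 and Ptprc were picked for these lines after their values were seen.

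The 2 libraries labelled AOE differed from each other in 8 of the 10 genes, all lower in library 1, where 52.6% of all genes differed, 22.4% higher and 30.1% lower. Ptprj was 13.5-fold lower in library 1 than in library 2 (log2 difference -3.65, SE 0.156, limma adjusted p = 1.27e-09), Cd22 2.44-fold (-1.28, SE 0.148, 1.36e-05), and Siglecg 2.07-fold (-1.03, SE 0.172, 0.00029). Cd72 was at -0.48 here and lost its call under each scaling tried. Inpp5d lost its call after scaling by totals that leave out Rn45s (-0.36), and Pirb lost its call with a robust prior. With no filter 1 of the 10 genes passed.

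Compared as groups, the libraries labelled AOE and WT did not differ in any of the 10 genes past the threshold, and 0 of 12617 genes passed by limma or limma-voom (280 at an unadjusted p under 0.05 by limma). Ptprj averaged 11.42 ± 2.58 in the AOE-labelled group and 13.64 ± 0.0118 in WT on the deposited log2 scale (SD, n = 2 each; difference -2.22, SE 1.25, limma adjusted p = 0.726). Ceacam1 averaged 10.92 ± 0.232 in the AOE-labelled group and 10.30 ± 0.0204 in WT (0.63, SE 0.293, limma adjusted p = 0.726). Without AOE-labelled library 1 the group difference of Cd22 was 0.36 and without AOE-labelled library 2 it was -0.92, so its sign rests on which library is kept. The groups did not overlap in 3 of the 10 genes, Ceacam1 above WT and Inpp5d and Ptprj below, where 42.6% of all genes tested did not overlap (19.6% above and 23.0% below).

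Lists of related genes are given beside all genes tested, of which 34.4% fell and 26.8% rose in AOE-labelled library 1, and of which 2642 of 17905 passed with no filter. Of 16 other inhibitory receptors of leukocytes tested, 9 fell, 1 rose and 6 did not pass in library 1 (median difference -1.28), and with no filter 1 of 18 passed. Fcrl5, an Fc receptor-like protein of B cells, had 11 and 2168 reads in AOE-labelled libraries 1 and 2, against 654 and 624 in WT, a fall of 58.7-fold in library 1 (log2 difference -4.38, limma adjusted p = 1.84e-08). It was high in library 2 (1.47, SE 0.193, limma adjusted p = 0.00304). Lilrb4a, which encodes the ITIM receptor gp49B of myeloid cells, took the same course, at 28.9-fold lower in library 1 (-4.09, limma adjusted p = 2.68e-08) and 2.98-fold higher in library 2 (1.58, SE 0.217, limma adjusted p = 0.00403). Both calls of library 2 were lost with no filter (adjusted p = 0.35 and 0.419), as was that of Lilrb4a in library 1 (0.0634). Sirpa, which binds CD47, rose in library 1 (0.62, limma adjusted p = 0.031, lost with no filter at 0.0696) and lay at 0.61 in library 2 (limma adjusted p = 0.215).

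Other phosphatases of antigen receptor signalling went both ways in AOE-labelled library 1, with 6 of 14 higher (26.8% of all genes), 5 lower (34.4% of all genes) and 3 not past the threshold (median difference 0.09; 3 of 14 passed with no filter, against 2642 of 17905). Ptpn1, which encodes PTP1B, was 23.8-fold lower (log2 difference -4.21, limma adjusted p = 4.39e-10), and Ptpn22 5.94-fold lower (-2.47, limma adjusted p = 2.41e-07, lost with no filter at 0.0817). Ptpn7, a phosphatase of MAP kinases in leukocytes, was 4.67-fold higher (2.17, limma adjusted p = 1.96e-07). Ubash3a, a suppressor of T cell receptor signalling, had 278 and 12 reads in AOE-labelled libraries 1 and 2, against 2 and 5 in WT (3.80, limma adjusted p = 4.04e-06, lost with no filter at 0.0571). In AOE-labelled library 2 the median difference of the 14 was 0.07, against 0.01 for all genes.

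Of 19 kinases and adaptors of antigen receptor and ITIM signalling, 15 lay below the WT mean in AOE-labelled library 1 and 4 above it. Of all 12617 genes tested, 6900 lay below and 5717 above. The median difference in library 1 was -1.01 for this list and -0.15 for all genes, and in library 2 it was 0.01 for both. Lyn, the kinase that phosphorylates ITIMs, had 5019 and 11115 normalised reads in AOE-labelled libraries 1 and 2, against 11962 and 11992 in WT, and was 2.39-fold lower in library 1 (log2 difference -1.24, SE 0.126, limma adjusted p = 2.09e-06). It was named after its value was seen. Pag1, a membrane anchor for the kinase Csk, fell 9.13-fold (-3.09, limma adjusted p = 1.71e-09) and the adaptor Blnk 8.14-fold (-2.99, limma adjusted p = 5.14e-10), while the kinase Btk rose 1.67-fold (0.72, limma adjusted p = 0.00232). In library 2 Pag1 was the 1 gene of the list that passed (-0.72, SE 0.14, limma adjusted p = 0.0246), a call lost with no filter (0.168), with 0.5 reads added before the log (0.065), with size factors computed anew (0.0606) and after scaling by totals that leave out Rn45s (0.0678).

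Among coreceptors and activating counterparts 5 of 10 fell and 2 rose in AOE-labelled library 1, near the 61.2% of all genes called there (median difference -0.89; 3 of 13 passed with no filter). Tyrobp, the signalling adaptor DAP12 of myeloid and NK cells, was 13.2-fold lower (log2 difference -3.24, limma adjusted p = 1.57e-07, lost with no filter at 0.0646), and Cr2, the complement receptor CD21, was lower too (-2.94, limma adjusted p = 3.15e-09). Cd79b rose (1.10, limma adjusted p = 8.39e-06), as did Cd81, a tetraspanin (0.56, limma adjusted p = 0.00548, lost with no filter at 0.211). In library 2 Cr2 (1.02, limma adjusted p = 0.00456) and Cd81 (0.73, limma adjusted p = 0.0362) rose, calls lost with no filter (0.371 and 0.429). That of Cd81 was also lost on the log2 scale with 0.5 reads added (0.0867), after scaling by totals that leave out Rn45s (0.0811) and with size factors computed anew (0.0817).

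A list of 11 genes held those for ligands and for enzymes that make, attach or change sialic acids. Its median difference in AOE-labelled library 2 was 0.07, against 0.01 for all genes. In AOE-labelled library 1 it was -0.15, as for all genes. There 5 of the 11 lay above the WT mean and 6 below it, against 5717 above and 6900 below among all 12617 genes tested. Cd24a, whose sialylated product is a ligand of Siglec-G, was 4.18-fold higher (log2 difference 2.06, limma adjusted p = 1.1e-08), and Nans, a sialic acid synthase, 2.74-fold higher (1.30, limma adjusted p = 0.00109, lost with no filter at 0.0687). Cmah, which makes the glycolyl form of sialic acid that mouse CD22 prefers, was 5.56-fold lower (-2.43, limma adjusted p = 1e-08). Sema4d, which encodes the CD72 ligand CD100, was 2.62-fold lower (-1.37, limma adjusted p = 2.52e-06).

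**Figure D4:**
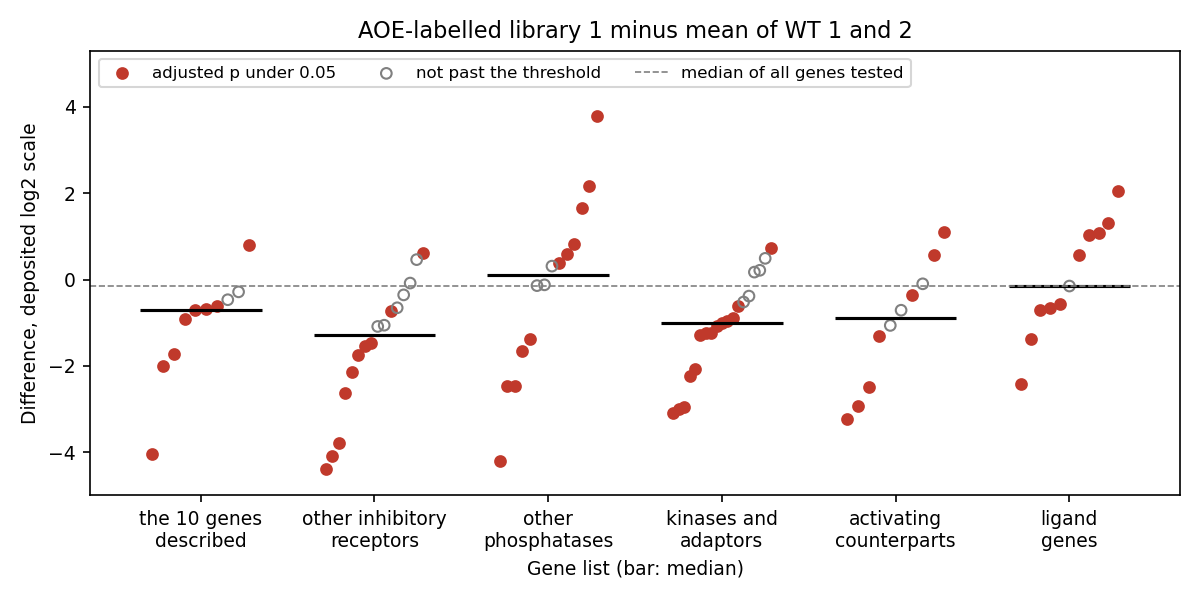
Difference of AOE-labelled library 1 from the WT mean on the deposited log2 scale for the 10 genes and 5 lists of related genes, 1 point per gene tested, filled where the adjusted p was under 0.05, with list medians as bars and the median of all genes tested dashed. The 10 genes ran from -4.04 for Ptprj to 0.79 for Ceacam1, and other phosphatases from -4.21 to 3.80.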

How the data were processed

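The tools named by the authors, per the submitters' processing notes, are STAR, HTSeq and DESeq2, and the build is mm10; versions, settings, annotation and the use of strand are not given in the sources used here. What the authors deposited is 1 log2 value per gene and library, with a common floor of 4.949 and the shape of a variance stabilizing transformation. With y the value and K the floor, both taken off the log2 scale, the square of y - K divided by y gave normalised reads, and 100% of the values times a size factor (0.4263 and 0.5079 for AOE-labelled libraries 1 and 2, 0.5019 and 0.3618 for WT libraries 1 and 2) came out whole within 0.01 reads. The header of AOE-labelled library 1 differs in 1 digit from its sample's title, and the genotype of WT library 2 is misspelled; both were read as slips.

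A gene was kept if 2 or more libraries had 10 reads of it, scaled to the median library, and all together had 15, 12617 of 24411. All 10 genes described passed. Groups and libraries were compared by limma-trend on the deposited log2 values (R 4.3.3, limma version 3.58.1), two-sided, with Benjamini-Hochberg adjustment over all genes kept and a threshold of 0.05. Every unnamed adjusted p is from this test. Differences on the deposited scale understate the change of genes with few reads, and folds are ratios of normalised reads. No covariate was used, since the labels give no batch. Alternatives were 3 other scalings, log2 of normalised reads plus 0.5, no filter, 5 CPM in 2 libraries, limma-voom on recovered reads, a robust prior, and leaving out each library. The 10 genes and the lists were chosen with earlier results of these data known. The rule named the 10 genes, Arid5b, the 2 largest rises and falls of each list in library 1 and every list gene called in library 2. Upstream sequences came from RefSeq's GRCm38.p6 annotation, matched by symbol for all 10 genes, with the start nearest to that of GENCODE where several are listed.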

Additional observations from a re-analysis of the deposited data

How the results depend on the processing

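In the comparison of AOE-labelled library 1 with WT, 7721 genes passed, against 2642 with no filter, and 8 of the 10 genes described passed, against 3; the other settings kept the total between 5763 and 7944 and the 10 genes at 7 or 8. Between the libraries labelled AOE, no filter gave 2486 genes in place of 6631, and 1 of the 10 in place of 8. In AOE-labelled library 2 the total of 209 became 70 with recomputed size factors, 58 by totals without Rn45s, 56 with log2 of reads plus 0.5, 0 with no filter and 614 by limma-voom; 0 of the 10 genes passed under any of these. The cause was not tested.

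For the group comparison, leaving out 1 library gave 0 to 7721 genes and 0 to 8 of the 10. The differences then ran from -0.92 to 0.36 for Cd22, -0.29 to 0.20 for Cd72, -0.47 to 0.04 for Fcgr2b, -0.61 to 0.41 for Siglecg, -2.01 to 0.98 for Pirb, -1.72 to 0.47 for Lair1 and -0.69 to 0.29 for Ptpn6, and kept their sign for Ceacam1, Inpp5d and Ptprj. Cd72 moved from -0.04 to 0.01 with recomputed size factors, 0.02 by library totals and 0.05 by totals without Rn45s. Totals without Rn45s moved the median of all genes in library 1 from -0.151 to 0.017. No paired analysis was possible because the labels give no replicate numbers. Depth limits Pirb, with 12 reads in AOE-labelled library 1.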
